A study of Homo sapiens with 6 samples.

Results

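Genes of the kinetochore, the spindle checkpoint and mitotic exit were followed in Huh7 cells, an established hepatocellular carcinoma line, after depletion of SETD5. The group holds 37 listed symbols and every symbol made of CENP and a single letter, which added 19. All 56 had a mean of at least 1 CPM (read counts that the authors scaled to a common library size), so all 56 were kept out of 14200 genes in the table and 12865 tested. The rule uses names and mean levels and no difference between groups. The study compared 3 control libraries with 3 libraries of cells transfected with siRNA against SETD5, a SET-domain protein of chromatin. Cells of both groups were the same line grown in DMEM with serum, and the labels do not say what siRNA, if any, the control cells received, how long after transfection RNA was taken, or whether the 3 libraries of a group were separate cultures. What the p-values measure is thus library-to-library spread, and this could be technical only. In such bulk RNA, a different share of cells in mitosis and a different amount of RNA per mitotic cell cannot be told apart.

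At mitosis the kinetochore is built on centromeres marked by the histone variant CENPA, and its outer part, the NDC80 complex, holds the microtubule ends. Unattached kinetochores make the checkpoint complex that restrains CDC20, the activator of the anaphase-promoting complex (APC/C). Once the checkpoint is satisfied, the APC/C marks securin (PTTG1) and cyclin B for destruction, separase (ESPL1) opens cohesin, and the cell divides. Transcripts of many of these genes are made in late S and G2 phase, and their promoters are known for CHR elements, bound by DREAM and B-MYB complexes, and CCAAT boxes, bound by NF-Y.

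SETD5 itself stood at 212, 210 and 202 CPM in controls 1 to 3 and at 136, 140 and 138 CPM in knockdown libraries 1 to 3, so the groups did not overlap. SETD5 differed by -0.59 ± 0.032 in log2 (standard error, limma adjusted p = 1.15e-17). An exact two-sided permutation test of 3 against 3 gave p = 0.1, the smallest it can give. Between 14038447 and 17095417 reads per library could be recovered from the table. Replicates differed by a chi-square of 1.25 to 2.10 per gene within groups and 19.7 to 24.1 between groups. The hepatocyte lineage was clear, with all 8 of its markers present at a sum of 37645 to 38206 CPM in controls and 36294 to 36602 CPM after knockdown. Most of that sum was AFP, at 21336 and 20268 CPM, and the markers went different ways. TTR fell to 0.619, APOA2 to 0.717, APOA1 to 0.847, SERPINA1 to 0.877 and AFP to 0.950 times the control. FGB rose to 1.18 and ALB to 1.07 times, and HNF4A did not pass. Of the 4 endothelial markers, VWF and KDR were not in the table, and PECAM1 and CDH5 together stood at 0.786 to 1.35 CPM in controls and 0.614 to 0.938 CPM after knockdown. Fibroblast markers summed to 192 to 204 CPM in controls and 332 to 342 CPM after knockdown, but their members went different ways. COL1A2 rose from 135 to 282 CPM, COL3A1 from 2.15 to 4.25 CPM and LUM from 10.8 to 13.0 CPM. COL1A1 fell to 0.659 times and PDGFRB to 0.722 times the control, PDGFRA did not pass, and DCN was not in the table. The immune list, with 3 of 5 markers in the table, summed to 258 to 284 and 628 to 705 CPM, nearly all of it LYZ, while PTPRC stood at 1.13 and 1.59 CPM and CD3E and CD79A were not in the table. These sums differed between the groups, and their part in the results below was not tested.

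Most of the mitotic genes differed little in level between the groups, and of those that passed the test more were higher than lower. Of 56 members, 19 rose and 7 fell at a limma adjusted p under 0.05. That is 33.9% higher and 12.5% lower, where 25.7% of all 12865 tested genes were higher and 26.5% lower. Calls in either direction made up 46.4% of the members, against 52.1% of all tested genes. The strongest rise was that of CENPF, a large protein of the outer kinetochore corona, to 1.35 times the control. TOP2A, the topoisomerase that untangles sister chromatids, rose to 1.26 times and UBE2C, the ubiquitin-conjugating enzyme of the APC/C, to 1.26 times. HMMR, a spindle protein, had the largest fall, to 0.802 times the control.

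No member changed by as much as 1.5-fold, and the median absolute log2 change was 0.093 over the members and 0.16 over all tested genes. Changes of at least 1.2-fold were seen in 6 members (10.7%) and in 28.96% of all tested genes. When limma's TREAT test asked for more than 1.2-fold, CENPF was called (adjusted p = 0.000261) and the other 55 members were not, which is 1.79% of the members against 11.4% of all genes. Control and knockdown values did not overlap in 27 of the 56 members (48.2%), compared with 57.3% of all tested genes. Of these 27, 22 were higher and 5 lower after knockdown. The median log2 change of the members was 0.039 and that of all tested genes was -0.0012.

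**Figure D1:**
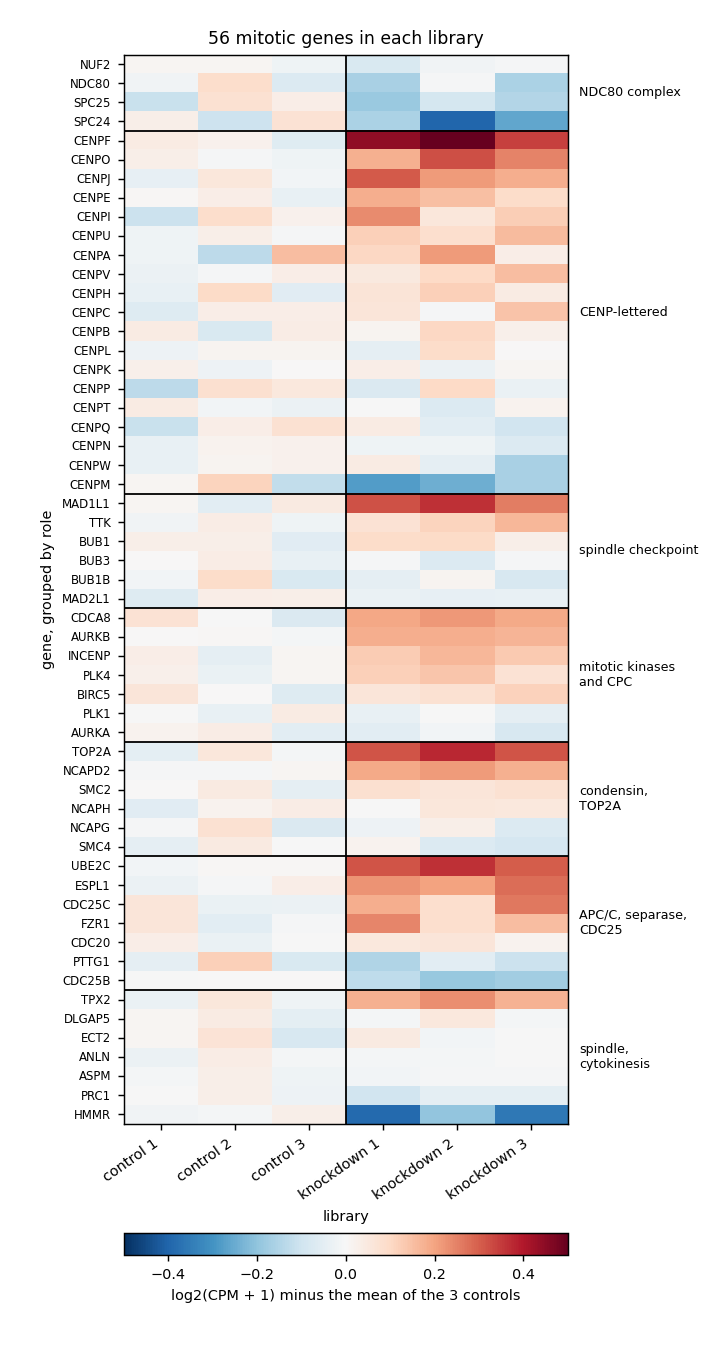
Each row is a member and each column a library; colour gives log2(CPM + 1) minus the mean of the 3 controls, from blue (lower) to red (higher), with genes grouped by role. CENPF, TOP2A, UBE2C and MAD1L1 are red in all 3 knockdown libraries and HMMR and SPC24 are blue, while most rows stay pale.

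How the calls split depended on scaling and on single libraries. Subtracting each library's median moved the group medians by 0.011 in log2 and gave 23 higher and 4 lower members, so that 85.2% of the calls were higher instead of 73.1%. Over all tested genes the share of calls that were higher moved too, to 52.1% from 49.3%. The count of falls was 3 without control replicate 2, and 4 without knockdown replicate 1 or without knockdown replicate 3. Control replicate 2 was the control with the highest levels of these genes: 38 of its 56 values lay above the control mean, against 24 in each of the other controls. The median log2 ratio to the control mean over the members was -0.0053, 0.024 and -0.0074 in controls 1 to 3 and 0.043, 0.058 and 0.021 in knockdown libraries 1 to 3, so control 2 lay above knockdown 3. Summed over the 56 genes, levels were 6269 to 6482 CPM in the controls and 6701 to 6865 CPM after knockdown. Without TOP2A these sums were 5657 to 5842 and 5936 to 6065 CPM.

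Promoters are given before the single genes because the rule did not use them. RefSeq promoter windows on GRCh38.p14, from 250 bases before to 50 bases after a start, were matched for 46 of the 56 members, which have 62 windows. There is no entry for BUB3, TTK, AURKA, BIRC5, TPX2, UBE2C, CENPH, CENPJ, CENPL and CENPM. The CHR word TTTGAA was searched on both strands and was found in at least 1 window of 29 of the 46 members (63.0%), and in 14.1% of 9611 tested genes with a window. Counted over windows of equal length, it was in 50% of the members' windows, in 10.8% of those of tested genes and in 15.2% of all 35116 windows. The NF-Y word CCAAT, also on both strands, was in 67.4% of the members and 43.6% of the tested genes, or 56.5% and 34.8% of windows, and in 34.6% of all windows. Both words were present in 19 members (41.3%) and in 5.92% of tested genes. The E2F words TTTCCCGC, TTTCGCGC, TTTGCCGC and TTTGGCGC were in 2 members (4.35%), compared with 6.63% of tested genes, and in 3.31% of all windows. Other genes of mitosis, from the 7 lists described further below, held these words too: of 93 with a window, 48.4% had the CHR word, 62.4% CCAAT, 30.1% both and 22.6% an E2F word. A match is a run of letters in a window and not a measured site.

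The 120 bases before the start of 6 members are shown because they hold both words upstream of the start while their RNA behaved differently: CDCA8, INCENP and ESPL1 rose, PLK1 and PRC1 did not pass the test, and HMMR fell. Capitals mark TTTGAA, and CCAAT or its reverse complement ATTGG. In CDCA8 the last base of TTTGAA is also the first of ATTGG, and in HMMR a CCAAT and an ATTGG overlap. Sequences run 5′ to 3′ on the gene's strand.
CDCA8 (chr1:37692396-37692515, + strand): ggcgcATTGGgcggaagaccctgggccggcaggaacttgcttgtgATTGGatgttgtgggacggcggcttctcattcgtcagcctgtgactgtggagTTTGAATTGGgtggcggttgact
INCENP (chr11:62123891-62124010, + strand): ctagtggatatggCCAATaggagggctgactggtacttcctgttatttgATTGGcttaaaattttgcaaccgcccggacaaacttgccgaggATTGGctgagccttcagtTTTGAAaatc
ESPL1 (chr12:53268179-53268298, + strand): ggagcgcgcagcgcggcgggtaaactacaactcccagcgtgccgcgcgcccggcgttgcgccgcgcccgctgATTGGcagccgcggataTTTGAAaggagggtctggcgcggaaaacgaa
PLK1 (chr16:23678769-23678888, + strand): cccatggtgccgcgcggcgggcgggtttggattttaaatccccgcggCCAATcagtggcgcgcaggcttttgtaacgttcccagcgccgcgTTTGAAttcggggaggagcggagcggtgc
PRC1 (chr15:90994536-90994655, - strand): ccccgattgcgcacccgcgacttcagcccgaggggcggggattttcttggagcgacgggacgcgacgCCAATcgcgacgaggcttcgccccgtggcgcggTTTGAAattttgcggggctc
HMMR (chr5:163460512-163460631, + strand): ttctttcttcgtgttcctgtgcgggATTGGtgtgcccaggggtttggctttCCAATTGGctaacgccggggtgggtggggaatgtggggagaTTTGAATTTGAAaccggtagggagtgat

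In these 6 promoters the CHR word began 10 to 31 bases before the start, and HMMR carried it as a tandem pair at 28 and 22 bases. The nearest CCAAT or ATTGG that began upstream of it lay at 28 bases in INCENP, 48 in ESPL1, 53 in PRC1, 66 in HMMR, 73 in PLK1 and 75 in CDCA8. Over all members, CHR words were densest in the 25 bases before the start, at 16.1 per 100 windows compared with 0.825 for tested genes. CCAAT words were densest 51 to 75 bases before the start, at 27.4 against 9.70 per 100 windows. A CHR word within 50 bases of the start was held by 22 of the 46 members (47.8%) and by 4.47% of tested genes.

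Calls in both directions were made with and without the CHR word. Of the 29 members that hold it, 10 rose and 3 fell, with a median log2 change of 0.012. Of the 17 members with a window but no CHR word, 4 rose and 3 fell, with a median of 0.035. Among tested genes, 30.04% of those with the word were higher and 24.9% lower, and of those without it 26.3% were higher and 26.9% lower.

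**Figure D2:**
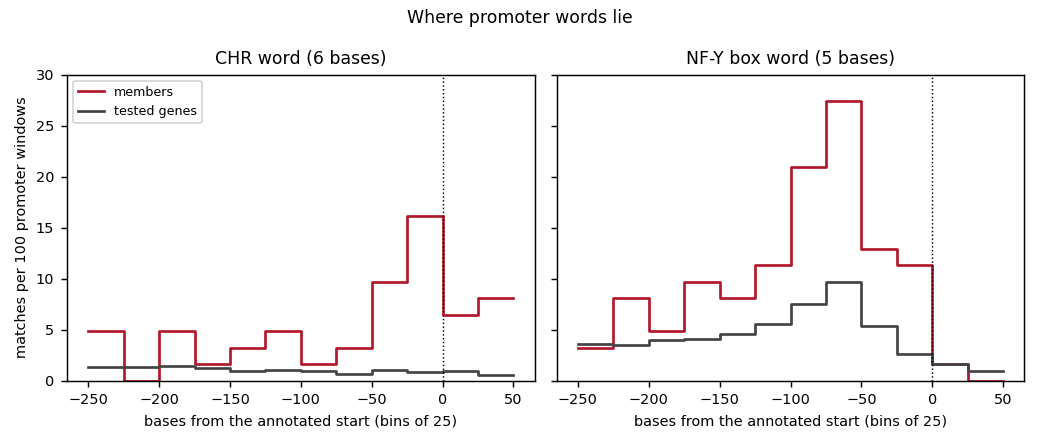
Matches per 100 promoter windows in bins of 25 bases along the distance from the annotated start, for the CHR word (left) and the NF-Y box word (right), in members (red) and in all tested genes (grey). The members peak at 16.1 for the CHR word just before the start and at 27.4 for the NF-Y box word further upstream.

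CENP proteins range from the centromeric nucleosome to the corona. Of 19 members with a CENP letter, 5 rose, 1 fell and 13 did not pass. That is 26.3% higher and 5.26% lower, against 25.7% and 26.5% of all tested genes. Calls in either direction made up 31.6%, fewer than the 52.1% of all tested genes. Counts of the smaller roles below are to be read against the same shares. CENPF stood at 176, 173 and 164 CPM in the controls and at 233, 245 and 217 CPM after knockdown. Every knockdown value lay above every control value, with a log2 change of 0.43 ± 0.036 (standard error, limma adjusted p = 1.25e-12). CENPO, of the constitutive centromere network, was at 64.7, 63.0 and 62.4 CPM and then at 71.9, 79.4 and 75.4 CPM, also without overlap (log2 change 0.25, adjusted p = 5.58e-06). CENPJ, which despite its name builds centrioles, was at 34.2, 36.7 and 34.9 CPM and rose to 43.8, 41.0 and 40.1 CPM (log2 change 0.23, adjusted p = 0.000272). Both moved by a similar amount, and in each the lowest knockdown library was above the highest control.

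CENPE, the kinesin that moves chromosomes to the spindle equator, rose from 83.0 ± 2.06 to 91.7 ± 2.97 CPM (SD, n = 3 per group, limma adjusted p = 0.00211). CENPV rose to 1.07 times the control, close to the threshold (adjusted p = 0.0483), and its call ended without control replicate 1, control replicate 2, knockdown replicate 2 or knockdown replicate 3, without the filter on low values, and without the mean-variance trend (adjusted p up to 0.218). CENPM, of the centromere network, was at 19.1, 20.5 and 17.3 CPM in the controls and fell to 15.4, 15.8 and 16.8 CPM (log2 change -0.23, adjusted p = 0.0095). The groups were separate by a narrow margin, and the call ended without control replicate 2 (adjusted p = 0.0763). CENPA, the histone of the centromere itself, did not pass at 19.7 ± 2.08 and 21.4 ± 1.41 CPM (adjusted p = 0.181), but did without control replicate 3 (adjusted p = 0.039). CENPC, its reader, was at 16.7 and 17.5 CPM, and the DNA-binding CENPB at 83.6 and 86.4 CPM, neither passing. The other members without a call, CENPH, CENPI, CENPK, CENPL, CENPN, CENPP, CENPQ, CENPT, CENPU and CENPW, had log2 changes from -0.056 to 0.14. CENPI passed without control replicate 2 or knockdown replicate 2 and under median centring, and CENPU under both scalings and without the mean-variance trend.

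The NDC80 complex joins the kinetochore to microtubules through 4 proteins, and its transcripts leaned to lower levels. SPC24, NDC80 and SPC25 fell and NUF2 did not pass, where 26.5% of all tested genes were lower. SPC24 was at 13.2, 11.98 and 13.6 CPM in the controls and at 11.5, 9.57 and 10.6 CPM after knockdown, a log2 change of -0.27 ± 0.086 (standard error, limma adjusted p = 0.0082). The groups did not overlap, and the call ended without knockdown replicate 2 (adjusted p = 0.0604). NDC80, the microtubule-binding subunit, went from 76.3 ± 4.33 to 70.7 ± 4.503 CPM (adjusted p = 0.0423) and SPC25 from 33.9 ± 2.37 to 30.7 ± 1.06 CPM (adjusted p = 0.0396), and in both the groups overlapped. Each of these 2 calls ended in 7 of 15 alternatives. For both, these were both scalings, the fit without a mean-variance trend, and the fits without control replicate 2, knockdown replicate 1 or knockdown replicate 3. The seventh was the fit without control replicate 1 for NDC80 and without control replicate 3 for SPC25. Adjusted p reached 0.261 for NDC80 and 0.181 for SPC25. NUF2, the partner of NDC80 in the same coiled coil, was at 35.3 ± 0.46 and 34.5 ± 0.907 CPM (adjusted p = 0.625).

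Of the 6 checkpoint genes, 2 rose and 4 did not pass (33.3% called, against 52.1% of all tested genes). MAD1L1, which holds MAD2 at unattached kinetochores, was at 24.3, 23.3 and 24.9 CPM and rose to 30.4, 31.4 and 29.01 CPM. All knockdown values exceeded all controls, with a log2 change of 0.31 ± 0.059 (standard error, limma adjusted p = 3.18e-05). TTK, the kinase that starts checkpoint signalling, rose from 81.1 ± 1.90 to 88.0 ± 2.90 CPM (adjusted p = 0.0112), a call that ended without knockdown replicate 3 and without the mean-variance trend (adjusted p up to 0.0796). MAD2L1, the client of MAD1L1 that blocks CDC20, was at 127 ± 4.82 and 124 ± 0.29 CPM, BUB1B at 117 and 114 CPM and BUB3 at 129 and 127 CPM. BUB1, a checkpoint kinase, was higher in 2 knockdown libraries than in any control and stood just above the highest control in the third, at 131 ± 4.39 and 137 ± 3.64 CPM (adjusted p = 0.0775). Its call was made without knockdown replicate 3 and under median centring.

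The chromosomal passenger complex corrects wrong attachments and then drives cytokinesis. All 4 of its transcripts rose, where 25.7% of all tested genes were higher. The list set for this role also holds the mitotic kinases AURKA, PLK1 and PLK4. Of its 7 genes, 5 rose and 2 did not pass (71.4% called, against 52.1% of all tested genes). CDCA8, also called borealin, was at 94.7, 90.1 and 85.7 CPM in the controls and at 103, 105 and 103 CPM after knockdown (log2 change 0.20 ± 0.038, standard error, limma adjusted p = 3.66e-05). The kinase AURKB rose from 162 ± 0.855 to 184 ± 0.803 CPM (adjusted p = 7e-06) and the scaffold INCENP from 109 ± 2.97 to 120 ± 1.77 CPM (adjusted p = 0.000911). BIRC5, or survivin, rose from 141 ± 6.15 to 150 ± 3.00 CPM (adjusted p = 0.0372). In all 4 the groups did not overlap, and the BIRC5 call ended without control replicate 2, control replicate 3 or knockdown replicate 3 and without the mean-variance trend (adjusted p up to 0.253).

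Outside that complex the mitotic kinases differed. AURKA, the centrosome kinase, did not pass, with 150 ± 5.02 CPM in controls and 145 ± 3.38 CPM after knockdown (limma adjusted p = 0.226). PLK1, which acts from mitotic entry to exit, was at 125 ± 3.48 and 122 ± 1.91 CPM (adjusted p = 0.507). PLK4, the kinase of centriole duplication, rose from 42.5 ± 0.877 to 45.9 ± 1.10 CPM at an adjusted p of 0.04995, and this call ended in 8 of 15 alternatives, namely no filter, no mean-variance trend, voom, and each library left out except knockdown replicate 3 (adjusted p up to 0.141).

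Among the genes that compact chromosomes, TOP2A and NCAPD2 rose and the other 4 did not pass (33.3% called, against 52.1% of all tested genes). TOP2A, the most abundant member in CPM, was at 596, 640 and 612 CPM in the controls and at 765, 800 and 765 CPM after knockdown. The groups were far apart, with a log2 change of 0.33 ± 0.028 (standard error, limma adjusted p = 1.5e-12). NCAPD2, a HEAT-repeat subunit of condensin I, rose from 245 ± 1.56 to 280 ± 3.36 CPM (log2 change 0.19, adjusted p = 4.42e-07). Its partners in condensin I were NCAPG at 254 ± 13.2 and 250 ± 8.69 CPM and the kleisin NCAPH at 93.6 and 95.9 CPM. The ATPases were SMC2 at 112 ± 3.43 and 118 ± 0.928 CPM (adjusted p = 0.0786) and SMC4 at 282 and 274 CPM. SMC2 passed without control replicate 2 and under median centring.

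Of the 7 genes listed for APC/C activation, separase, securin and the CDC25 phosphatases, 4 rose and 2 fell. That is 85.7% called, where 52.1% of all tested genes were called. The calls of PTTG1, FZR1 and CDC25C each ended in at least 1 alternative, given below. UBE2C was at 137, 139 and 139 CPM and rose to 172, 178 and 170 CPM, with a log2 change of 0.33 ± 0.032 (standard error, limma adjusted p = 7.89e-11). Separase, ESPL1, was at 61.7, 62.7 and 64.5 CPM and rose to 73.8, 72.6 and 76.6 CPM (log2 change 0.24, adjusted p = 7.99e-06). For both genes every knockdown library was above every control. Securin, PTTG1, which holds separase inactive, fell from 119 ± 8.79 to 111 ± 3.83 CPM (adjusted p = 0.0303) with overlapping groups. The PTTG1 call ended without control replicate 2, knockdown replicate 1 or knockdown replicate 3, under median centring, and without the mean-variance trend (adjusted p up to 0.344). A near-identical copy, PTTG3P, has a row of its own in the table, which makes uncertain how reads were divided between both.

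Of the APC/C activators, FZR1 (CDH1), which acts in late mitosis and G1, rose from 38.0 ± 1.55 to 42.6 ± 2.41 CPM (limma adjusted p = 0.00994), and CDC20, the target of the checkpoint, was at 197 ± 4.43 and 203 ± 3.20 CPM without passing (adjusted p = 0.248), although it passed under quantile normalization (adjusted p = 0.0424). The FZR1 call ended without knockdown replicate 1 and without the mean-variance trend (adjusted p up to 0.0946). The CDC25 phosphatases, which switch on CDK1, went opposite ways. CDC25B fell from 135 ± 0.163 to 120 ± 2.72 CPM (adjusted p = 8.77e-05) and CDC25C rose from 36.5 ± 1.37 to 41.4 ± 2.65 CPM (adjusted p = 0.00594). Neither gene's groups overlapped, and the CDC25C call ended without knockdown replicate 3 (adjusted p = 0.0644).

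Of the 7 spindle assembly and cytokinesis genes, 1 rose and 1 fell (28.6% called, against 52.1% of all tested genes). TPX2, which activates AURKA on spindle microtubules, was at 428, 455 and 431 CPM and rose to 496, 514 and 494 CPM (log2 change 0.19, limma adjusted p = 3.63e-07). HMMR was at 47.5, 47.8 and 49.2 CPM and fell to 36.6, 41.9 and 37.4 CPM, a log2 change of -0.31 ± 0.051 (standard error, adjusted p = 3.42e-06). In both the groups were separate. The other 5 lay within 5% of the control mean: the spindle pole protein ASPM at 231 ± 4.43 and 230 ± 0.59 CPM, the kinetochore fibre protein DLGAP5 at 116 and 117 CPM, the midzone bundler PRC1 at 230 and 220 CPM, the furrow scaffold ANLN at 216 and 215 CPM and the RhoA activator ECT2 at 217 and 218 CPM. The 95% interval of the log2 change was -0.068 to 0.053 for ANLN and -0.068 to 0.051 for ASPM. For PRC1 it was -0.124 to -0.0035 (limma adjusted p = 0.0706), and every knockdown value of PRC1 lay below every control value. The plot of changes with intervals sets these beside the other roles.

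**Figure D3:**
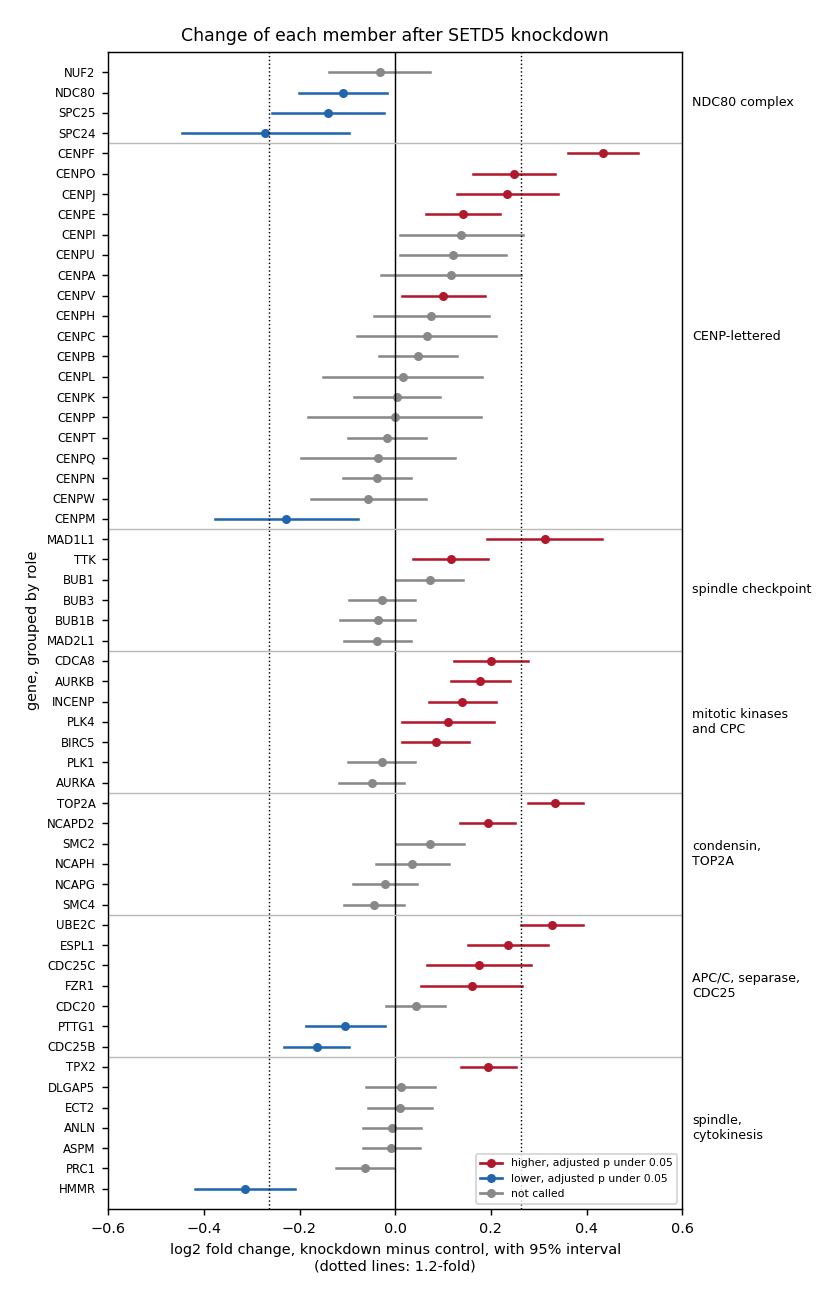
Log2 fold change (knockdown minus control, on log2(CPM + 1)) of each member with its 95% interval from limma, grouped by role; red is higher and blue lower at an adjusted p under 0.05, grey is not called, and dotted lines mark 1.2-fold. The 4 passenger complex genes CDCA8, AURKB, INCENP and BIRC5 are red, 3 of the 4 NDC80 complex genes are blue, and the intervals of CENPF and TOP2A lie beyond the 1.2-fold line.

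**Figure D4:**
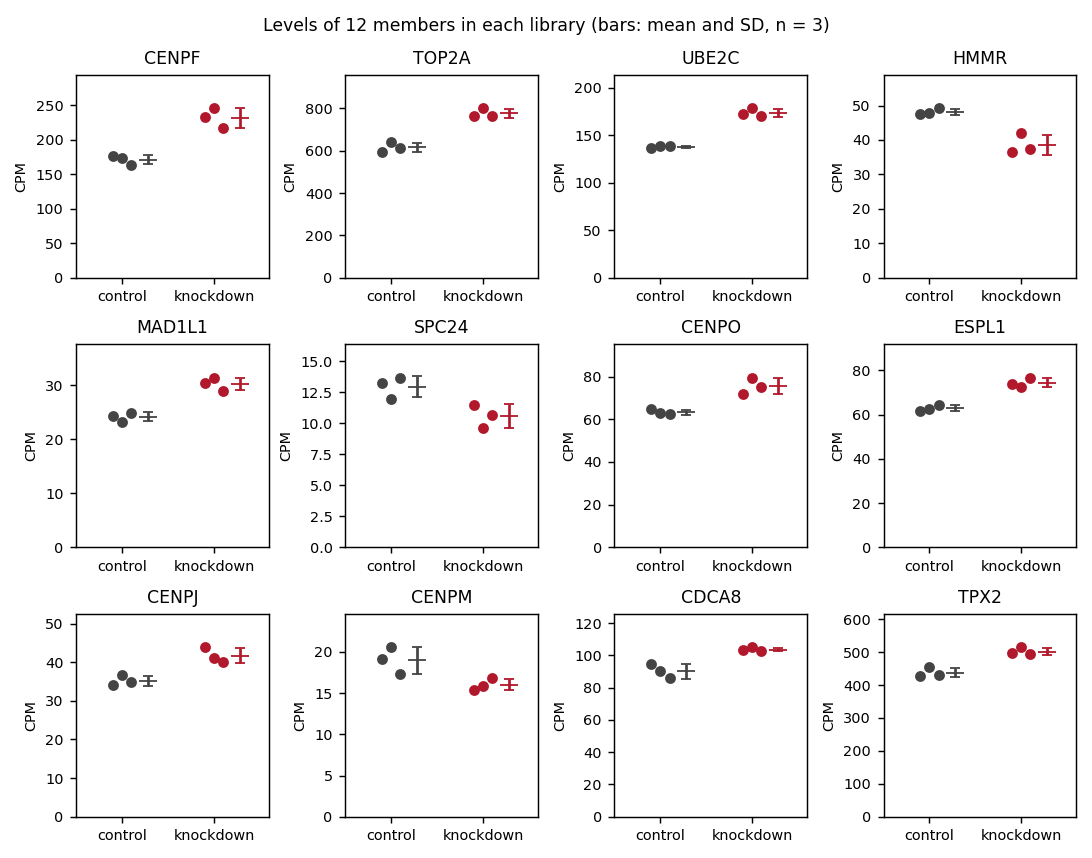
CPM in each library for the 12 called members with separate groups and the largest absolute log2 change, with points for libraries and bars for the mean and SD (n = 3), on axes that start at 0. In each panel the 3 knockdown points lie wholly above the 3 controls or wholly below them, and CENPF has the largest log2 change.

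A call in one gene and none in its partner does not show that they differ, so the log2 ratio of 15 pairs of partners or paralogs was compared between libraries, with pairs chosen by function and with earlier results known. The ratios did not overlap between groups in 9 of the 15 pairs, each at an exact two-sided permutation p of 0.1, the smallest that 3 against 3 can give (smallest Benjamini-Hochberg value over the pairs 0.167). For scale, the levels of 57.3% of all single tested genes did not overlap. No such share was computed for other pairs of genes, so the count is not a result about partners. MAD1L1 gained on MAD2L1 by 0.35 in log2, from a ratio of -2.35 ± 0.080 to -2.00 ± 0.055 (SD, n = 3). ESPL1 gained on PTTG1 by 0.34, from -0.91 ± 0.12 to -0.57 ± 0.074. CDC25B lost 0.34 to CDC25C, from 1.86 ± 0.054 to 1.52 ± 0.088, and CENPE lost 0.29 to CENPF, although both rose. These 4 pairs had the widest shifts, as the plot of ratios shows.

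The ratio of AURKA to AURKB was lower by 0.23, from -0.11 ± 0.041 to -0.34 ± 0.028, and that of NCAPD2 to NCAPG was higher by 0.21. Smaller separate shifts were those of PLK1 to PLK4 (-0.14), SMC2 to SMC4 (0.12) and BUB1 to BUB1B (0.11). The groups overlapped for NDC80 to NUF2 (-0.076, exact p = 0.4), SPC24 to SPC25, INCENP to BIRC5, NCAPG to NCAPH, CDC20 to FZR1, and TOP2A to TOP2B (0.035, exact p = 0.3). The NDC80 fall was thus not distinguished from the value of NUF2.

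**Figure D5:**
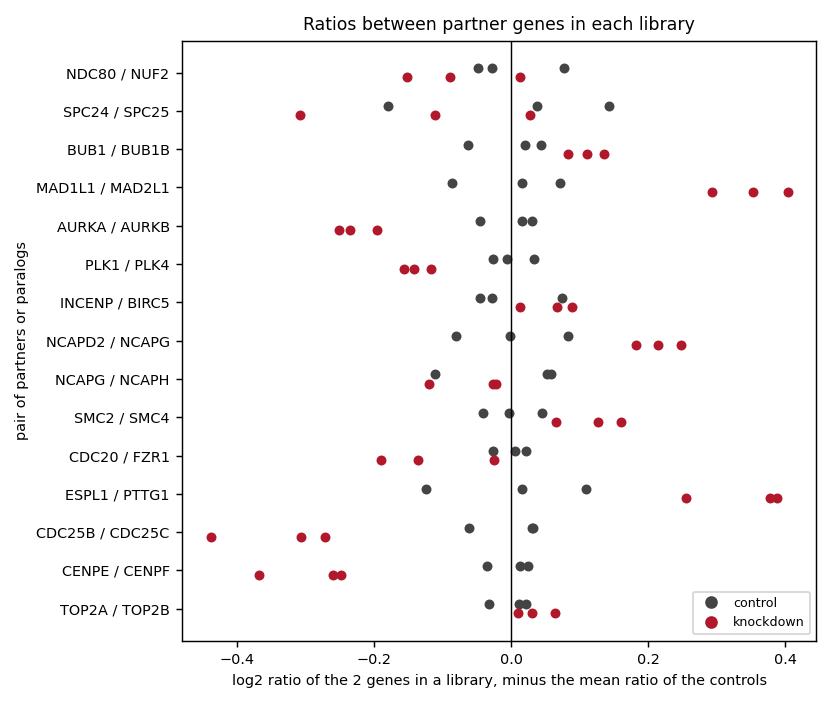
Each row is a pair of genes; points give the log2 ratio of their levels in a library minus the mean ratio of the controls, with controls in grey and knockdown in red. The red points of MAD1L1 / MAD2L1 and ESPL1 / PTTG1 lie to the right of all grey points and those of CDC25B / CDC25C and CENPE / CENPF to the left.

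Levels between genes were set per kilobase of 1 GENCODE 29 transcript per gene, so they depend on that choice. UBE2C was the highest member at 183 CPM per kb, followed by AURKB at 138, TPX2 at 134, TOP2A at 121, CDC20 at 113 and PTTG1 at 107 CPM per kb. The lowest were CENPP at 1.18, CENPC at 2.46 and SPC24 at 5.08 CPM per kb. Within the NDC80 complex the order was NDC80 at 33.8, SPC25 at 23.9, NUF2 at 17.7 and SPC24 at 5.08 CPM per kb. The member with the lowest mean, CENPP, had 162 reads per library on average and TOP2A 11001. The replicate CV was 0.121 to 10.6% in controls (median 3.27%) and 0.235 to 9.13% after knockdown (median 2.82%).

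Further genes of the same machinery were counted from 7 lists with 112 symbols, of which 111 were tested, 5 of them under an older symbol. Of these, 37 rose and 21 fell, so that 52.3% were called, close to the 52.1% of all tested genes. In direction, 33.3% were higher and 18.9% lower, against 25.7% and 26.5% of all tested genes, and the counts of the single lists below are to be read against those shares. Cohesin and its regulators, which hold sisters together until separase acts, rose in 10 of 16 genes and fell in 2 (75% called). The ring subunit SMC3 rose from 199.8 ± 3.15 to 300.4 ± 2.67 CPM (limma adjusted p = 6.89e-19), and the loader MAU2, PDS5A and STAG2 rose to 1.19, 1.19 and 1.15 times the control. Its ring partners went other ways: SMC1A was at 496 and 500.4 CPM without passing, and RAD21, the subunit that separase cuts, fell to 0.937 times (adjusted p = 0.00434), a call lost without the mean-variance trend (adjusted p = 0.0864).

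Mitotic entry genes rose in 6 of 15 and fell in 3 (60% called). WEE1, the kinase that restrains CDK1, rose from 80.5 ± 1.74 to 139 ± 3.93 CPM (limma adjusted p = 9.28e-20), and CDK1 itself rose to 1.18 times the control. The paired phosphatase inhibitors ARPP19 and ENSA split, to 1.18 and 0.825 times. CKS2 rose to 1.12 times, and CCNB1, the mitotic cyclin, was at 231 ± 9.48 and 239 ± 8.07 CPM without passing.

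Other kinetochore proteins rose in 4 of 20 and fell in 5 (45% called). KIF2C, the kinesin that takes microtubule ends apart at centromeres, rose to 1.29 times the control (limma adjusted p = 1.54e-11). ZW10 and SPDL1, which bring dynein to kinetochores, fell to 0.76 and 0.792 times, and ITGB3BP fell to 0.821 times, a call that ended without knockdown replicate 3 (adjusted p = 0.0532). ZWINT and ZWILCH, the most abundant others, did not pass. APC/C subunits and regulators rose in 4 of 18 and fell in 5 (50% called): MAD2L1BP, which helps to shut off the checkpoint, rose to 1.27 times, CDC16 rose to 1.12 times, UBE2S rose to 1.05 times, ANAPC16 fell to 0.842 times and CDC26 fell to 0.898 times the control. The calls of UBE2S and CDC26 ended under 6 alternatives each. For UBE2S these included every library left out except control replicate 3, and for CDC26 they included control replicates 2 and 3 and knockdown replicates 2 and 3 (adjusted p up to 0.148 and 0.139). ANAPC5 did not pass.

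Spindle motor, centrosome and midbody genes rose in 9 of 20 and fell in 2 (55% called). The microtubule polymerase CKAP5 rose to 1.21 times the control, the kinesin KIF15 and the midbody kinase CIT rose to 1.17 times each, and TACC3 rose to 1.06 times, whereas the spindle protein SPAG5 fell from 344 ± 3.03 to 299 ± 4.08 CPM (limma adjusted p = 9.27e-08). The TACC3 call ended without knockdown replicate 2 and without the mean-variance trend (adjusted p of 0.07 and 0.0913), and NUSAP1 did not pass. Of 7 other condensin and chromosome structure genes, TOP2B rose, to 1.23 times, and 6 did not pass, with the proliferation marker MKI67 at 253 ± 7.46 and 239 ± 16.5 CPM (adjusted p = 0.0621) and NCAPH2 at 117 and 115 CPM. MKI67 passed as lower without control replicate 1 (adjusted p = 0.0438), without knockdown replicate 2 (adjusted p = 0.000781) and with the replicate number as a block (adjusted p = 0.021).

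Regulators of G2/M transcription split, with 3 of 15 higher and 4 lower (46.7% called), and held some of the widest changes. The E2F partner TFDP1 fell from 111 ± 2.85 to 66.2 ± 1.15 CPM (limma adjusted p = 2.83e-18), and LIN54, the DREAM subunit that binds the CHR, fell from 46.1 ± 1.43 to 30.7 ± 2.30 CPM (adjusted p = 3.98e-11). RBBP4, a histone-binding DREAM subunit, rose from 205 ± 7.15 to 287 ± 6.31 CPM and the NF-Y subunit NFYA rose to 1.25 times the control. Their relatives, named after their values were seen, differed: the NF-Y subunit NFYC fell to 0.852 times (limma adjusted p = 0.000409), NFYB did not pass at 0.962 times, and TFDP2, the paralog of TFDP1, rose to 1.18 times (adjusted p = 0.000708). FOXM1 was at 171 ± 1.73 and 174 ± 2.70 CPM and MYBL2 at 200.2 ± 2.39 and 193 ± 6.71 CPM, neither passing.

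In earlier results on these data, genes with the 6-base word GCACCT in the 3′ untranslated region were more often lower, so the word was looked up here in 1 GENCODE 29 transcript per gene. It was held by 7 of the 56 members (12.5%) and by 30.1% of 11576 tested genes with such a region. The 7 were MAD2L1, SPC24, BIRC5, CDC25B, FZR1, CENPC and CENPP, of which 2 rose, 2 fell and 3 did not pass. Of the 49 members without it, 17 rose and 5 fell. Among tested genes, 34.0% of those with the word and 24.3% of those without it were lower, and 25.2% and 27.8% were higher. Because the word was taken from these same data, this difference is not a separate result. Of the genes named above from the 7 lists, TFDP1, LIN54, ZW10, ANAPC16, ENSA and RAD21 fell and hold the word. SPDL1, ITGB3BP, CDC26, SPAG5 and NFYC fell without holding it. MAU2, ARPP19 and CIT rose and hold it, and the other named genes that rose do not. SMC1A, ZWILCH and MKI67 did not pass and hold the word. Its part in these changes was not tested.

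Whether reads were counted by strand is not stated, and GENCODE 29 places exons of another gene over more than 10% of the transcript in 10 members. Of these 10, CENPO and CENPV rose and the other 8 did not pass (20% higher, 0% lower). Of the 46 members without an overlap of that size, 17 rose and 7 fell (37.0% higher, 15.2% lower). Of all tested genes, 25.7% were higher and 26.5% lower. The part of overlaps in the calls was not tested. With smaller overlaps, 16 members share exon bases, among them the called NCAPD2, HMMR and FZR1. For NCAPD2, 8.35% of the transcript lies opposite MRPL51, which was at 148 and 156 CPM while NCAPD2 was at 245 and 280 CPM. The share was 3.64% for HMMR (HMMR-AS1) and 1.34% for FZR1 (MFSD12). For CENPO, 33.9% of the transcript lies opposite ADCY3, which was at 2.34 and 3.25 CPM while CENPO was at 63.4 and 75.6 CPM. For CENPV the opposite gene is PIGL, at 7.28 and 7.47 CPM. The larger overlaps were those of PRC1 with AC068831.7 (65.4% of the transcript, same strand), CENPP with IPPK (42.4%) and NCAPG with LCORL (34.99%), and values of these members are uncertain for that reason.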

How the data were processed

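Poly(A)-selected, stranded mRNA libraries were made from Huh7 cells, per the labels' protocols. The authors deposited a table of normalized log2 values, and these log2 values are log2(CPM + 1): once the log is undone, each column is built of equal steps worth 1 read (100% of values within 0.01 of a whole read). STAR 2.5.1, R 3.3.0, hg19 and mm10 are named, without roles, per the submitters' processing notes; for the counter, scaling and filter, the tool is not given in the sources used here. A gene at 0 may stand at up to 3 reads, or 0.176 to 0.214 CPM, as far as counting error goes.

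The 6 columns all entered 1 fit. Genes that averaged 1 CPM or more were tested with limma 3.58.1 in R 4.3.3 (lmFit, eBayes with trend, two-sided, group as the sole term), adjusted by Benjamini-Hochberg over 12865 genes with a threshold of 0.05. The fit was also run on simulated reads in which few genes changed. That run does not test the fit in data where 52.1% of tested genes were called. Fold changes on log2(CPM + 1) understate low genes, and ratios in the text are of mean CPM. Levels are mean ± SD (n = 3). Levels in every library are given for the 12 called members with separate groups and the largest absolute change; from other lists up to 4 called genes by change and 2 by level are named. The members, lists, pairs and the 3′ word were chosen with earlier results of these data known. Promoters are RefSeq on GRCh38.p14; no genome of hg19 was used. Protein sequences were not analysed here.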

Additional observations from a re-analysis of the deposited data

How the results depend on the processing

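Of the 26 called members, 15 kept their call in all 15 alternatives other than TREAT: 13 higher (MAD1L1, AURKB, INCENP, CDCA8, TOP2A, TPX2, NCAPD2, ESPL1, UBE2C, CENPE, CENPF, CENPJ and CENPO) and 2 lower (CDC25B and HMMR). No called gene changed direction. Of the members without a call, BUB1, SMC2, CDC20, CENPA, CENPI and CENPU passed in at least 1 alternative. The alternatives were pseudocounts of 0.1 and 0.5, no filter, a minimum of 5 CPM, no mean-variance trend, median centring, quantile normalization, voom on recovered reads (added after seeing the data), the replicate block and 6 fits that each left out 1 library. SETD5 kept its direction and call, at -0.61 to -0.57 with a library left out. Higher members numbered 16 to 18 with a library left out, and lower ones 3 to 6. Lower members numbered 4 without the trend and 4 under median centring. TREAT, built to ask for more than 1.2-fold, called 1 higher and 0 lower members and 1466 genes in all. Its counts in the other lists were 0 for the APC/C, condensin and spindle motor lists, 1 each for cohesin, mitotic entry and other kinetochore genes, and 3 for G2/M transcription. Without the trend, 3 APC/C genes and 7 cohesin genes were called. With a library left out, the APC/C list had 4 to 7 calls and the condensin list 1 to 2. With the replicate number as a block, the members had 19 higher and 7 lower calls, the condensin list had 2, and 3399 genes were higher and 3499 lower in all, against 3303 and 3403 without the block. Deviations of same-numbered libraries from their group means had correlations of -0.011, 0.054 and 0.042. Those of numbers 2 and 3 were the highest of any control with any knockdown library. The crossed ones were the lowest (control 2 with knockdown 3 -0.046, control 3 with knockdown 2 -0.060). Control replicate 1 correlated best with knockdown replicate 3, at 0.0065. All were small and do not settle whether the numbers mark pairs. The labels do not say so, and the block was kept as an alternative. The planned count-model tests and TMM scaling were not run on the recovered reads; voom was run there with the authors' scaling. For members not called, the 95% intervals reached from -0.20 to 0.27 in log2 at the widest.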
